A study of Homo sapiens with 17 samples.

Results

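The 9 genes described here encode enzymes that place or remove methyl groups on lysine 36 of histone H3 (H3K36). They were taken by symbol from the deposited table of RNA-seq counts: NSD1, NSD2, NSD3, SETD2, ASH1L, KDM2A, KDM2B, KDM4A and KDM4C. They make up 9 of the table's 34496 gene rows, and all 9 passed the filter on low counts that left 13241 genes for testing. RNA had been sequenced in 10 libraries, all from established human cancer lines of the head and neck. There were 2 libraries of Cal27 cells labelled NSD1 knockout and given the EZH2 inhibitor EPZ-6438 (tazemetostat), 2 of the labelled knockout given DMSO, the solvent, and 2 of parental Cal27, a tongue squamous carcinoma line, given DMSO. A further set had no treatment and held 1 library each of the labelled knockout, of SKN3, of BICR78 and of parental Cal27. The labels used here give no dose or duration of treatment, no method of knockout, and no word on whether the knockout cells were a clone or a pool. A single knockout line was measured, so effects of that line and of losing NSD1 cannot be told apart. No library of parental Cal27 with EPZ-6438 was analysed here, and the chromatin profiles of the series were not analysed here.

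H3K36 methylation marks active chromatin in 2 main forms. The dimethyl form is laid down broadly, between and within genes, mostly by NSD1, NSD2 and NSD3, with ASH1L acting at developmental genes, while the trimethyl form is added along transcribed gene bodies by SETD2, which travels with RNA polymerase II. KDM2A and KDM2B remove the lower methyl states and bind unmethylated CG-rich DNA, and KDM4A and KDM4C remove the trimethyl form along with methyl groups on lysine 9. H3K36 methylation hinders PRC2, the complex that methylates lysine 27 of the same histone through EZH2, and NSD1 is a recurrent target of inactivating mutations in head and neck squamous carcinoma.

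In units of 1e6, the libraries held between 11.75 and 15.51 counts in the DMSO and EPZ-6438 set and between 17.59 and 21.74 in the untreated set. All 8 squamous epithelial markers examined (KRT5, KRT14, KRT6A, TP63, CDH1, EPCAM, DSG3 and SFN) were detected in every library. Their summed level differed widely, at 2298 to 2311 counts per 1e6 (CPM, after TMM scaling) in the knockout with EPZ-6438, 3782 to 3920 in the knockout with DMSO and 7839 to 7905 in Cal27 with DMSO. In the untreated set the sums were 4195 in the knockout, 5074 in SKN3, 11790 in BICR78 and 23400 in Cal27. Of the 8 markers, 6 fell and 1 rose in the knockout with DMSO against Cal27 with DMSO, and 7 fell and 1 rose with EPZ-6438 against the knockout with DMSO. Among all tested genes 19.5% fell and 16.4% rose in the first comparison, and 23.9% fell and 25.6% rose in the second. Of 3 tested fibroblast markers, 3 fell in the first and 2 rose in the second. Of 3 endothelial markers, 1 rose and 2 fell in the first, and 1 rose in the second. The 4 immune markers summed to 1.85 CPM or less, the 5 fibroblast markers to between 6.72 and 44.7, and the 3 endothelial markers to between 5.52 and 86.5, most of the highest sum being CDH5 in the untreated knockout. In bulk RNA, fewer cells of a kind and less RNA per cell cannot be told apart, and the part of these marker differences in the results below was not tested.

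In the labelled knockout with DMSO, 4 of the 9 enzymes rose against Cal27 with DMSO and none fell. These were NSD1 itself, NSD2, NSD3 and ASH1L, all writers of the mark. Over all tested genes, 16.4% were called higher and 19.5% lower by the same rule, an adjusted p below 0.05 in edgeR's quasi-likelihood test. The median log2 change was 0.18 over the 9 enzymes and -0.01 over all tested genes. Scaling by library size alone turned the balance over all genes, to 2978 higher and 2088 lower in place of 2169 and 2580, and then SETD2 (adjusted p = 0.034) and KDM2B (adjusted p = 0.049) were also called higher, giving 6. No direction among the 4 called enzymes changed with scaling. The p-values measure only the spread between libraries of the same group, estimated over all groups of the DMSO and EPZ-6438 set at once. The labels do not describe the 2 libraries of a group as separate cultures, and their spread may be technical.

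With EPZ-6438, 1 enzyme, NSD2, fell and 1, KDM4C, rose against the labelled knockout with DMSO, while 7 of the 9 did not pass the test. Over all tested genes 23.9% were called lower and 25.6% higher. The median log2 change was -0.05 over the enzymes and 0.003 over all genes. Against Cal27 with DMSO, the knockout given EPZ-6438 had 3 of the 9 enzymes higher, namely NSD1, NSD3 and ASH1L, and none lower, with 26.1% of all tested genes called higher and 25.9% lower. The median log2 change in that comparison was 0.11 over the enzymes and 0.004 over all genes. The comparisons share libraries, so their changes are not independent of one another. Counting enzymes whose libraries did not overlap, in the knockout with DMSO 7 lay above Cal27 with DMSO and 1 below, where all genes gave 33% and 34%. With EPZ-6438, 1 lay above and 5 below the knockout with DMSO (all genes 37.1% and 36.5%), and 7 lay above and 1 below Cal27 with DMSO (all genes 38.4% and 36.3%).

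**Figure D1:**
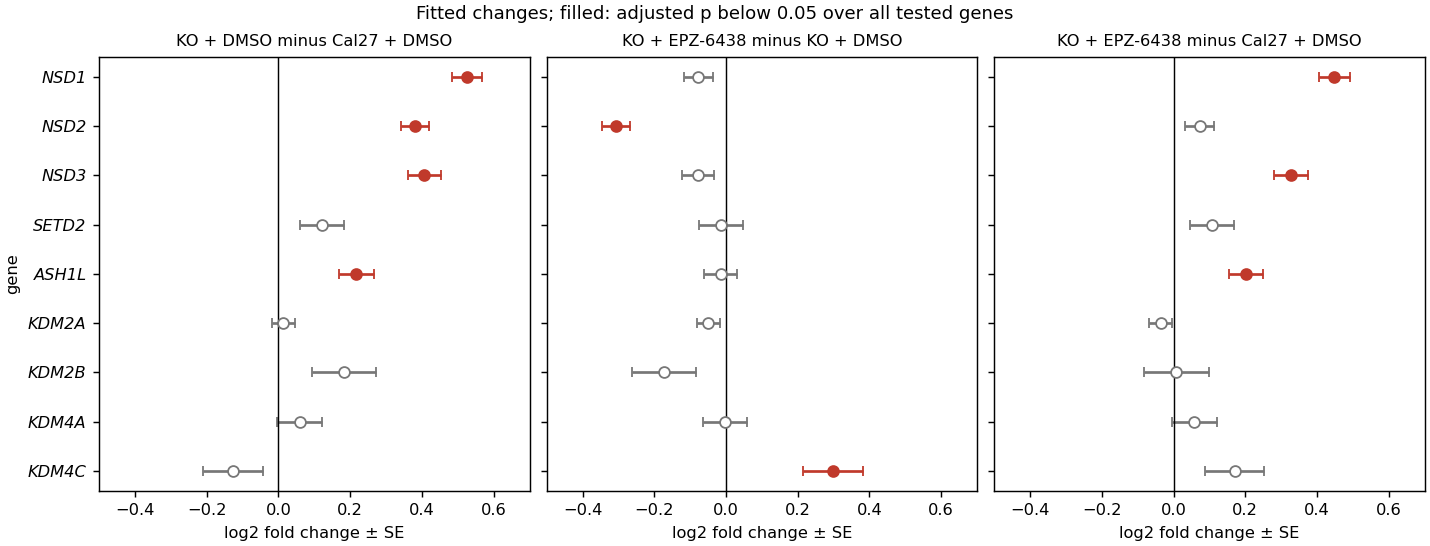
Fitted log2 fold change (x axis, ± SE) of each of the 9 enzymes (y axis) in the 3 comparisons that had 2 libraries a group, with filled points for an adjusted p below 0.05. NSD1, NSD2, NSD3 and ASH1L lie right of 0 in the first panel, and in the second NSD2 lies left of 0 at -0.31 and KDM4C right of it at 0.30.

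Among the writers, NSD1 was checked first because the labels name it as the gene knocked out. The gene lies at chr5:177131798-177300213 on the plus strand (RefSeq, GRCh38.p14). Its level was 162 and 151 CPM in the knockout with EPZ-6438, 165 and 164 in the knockout with DMSO, and 113 and 114 in Cal27 with DMSO. Both knockout groups lay well above Cal27, and the EPZ-6438 libraries lay slightly below the DMSO ones. The fitted rise in the knockout with DMSO was 0.53 ± 0.04 (log2, SE; adjusted p = 4.2e-08), and with EPZ-6438 against Cal27 with DMSO it was 0.45 ± 0.04 (adjusted p = 1.4e-07). The difference of -0.08 ± 0.04 between EPZ-6438 and DMSO within the knockout did not pass the test (adjusted p = 0.13), although it did at an adjusted p of 0.028 and a change of -0.13 when the first EPZ-6438 library was left out. In the untreated set NSD1 stood at 203 CPM in the labelled knockout and 149 in Cal27, a ratio of 1.36 (95% interval 1.30 to 1.43). Such intervals for single libraries cover counting error only. NSD1 mRNA was therefore above the parental level of its own set in all 5 libraries labelled knockout. A count over the whole gene does not show whether a short edit is present or whether protein is made, so it checks neither.

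NSD1 carries the widest range of levels among these genes. NSD2 moved under both the knockout label and the inhibitor in the DMSO and EPZ-6438 set, though not under the label in the untreated pair. The promoter windows of both genes are therefore shown. Each runs over the 250 bases before an annotated start, at chr5:177131548-177131797 (plus strand, the first of 5 starts of NSD1) and chr4:1871143-1871392 (plus strand, NSD2), from RefSeq on GRCh38.p14, written 5′ to 3′ with each CG in capitals.
NSD1: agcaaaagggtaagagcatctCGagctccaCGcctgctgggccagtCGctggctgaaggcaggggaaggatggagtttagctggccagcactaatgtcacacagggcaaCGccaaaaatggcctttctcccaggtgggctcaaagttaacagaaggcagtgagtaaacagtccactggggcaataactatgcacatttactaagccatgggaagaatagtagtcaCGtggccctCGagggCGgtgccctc
NSD2: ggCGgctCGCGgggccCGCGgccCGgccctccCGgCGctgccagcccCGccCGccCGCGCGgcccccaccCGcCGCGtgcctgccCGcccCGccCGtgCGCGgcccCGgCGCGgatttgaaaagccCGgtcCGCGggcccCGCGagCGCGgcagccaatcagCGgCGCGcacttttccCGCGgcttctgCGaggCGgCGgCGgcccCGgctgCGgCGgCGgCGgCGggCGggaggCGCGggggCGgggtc
The NSD1 window holds 7 CG pairs, a number that 58.9% of 35116 promoter windows of the same length reach or pass. The NSD2 window holds 50, reached or passed by 0.148% of them. The 4 other annotated starts of NSD1, downstream of the first, have 19, 34, 41 and 22, against a median of 11 over all windows. CG pairs are the letters that KDM2A and KDM2B bind when unmethylated, as background, and their number here says nothing of binding or methylation in these cells. Windows were taken for 8 of the 9 genes, the others holding between 9 and 40 CG pairs. NSD3 was left out without a search for its window.

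NSD1 was close to 0 in BICR78. The library had 9 NSD1 counts, or 0.468 CPM (95% Poisson interval 0.214 to 0.888), against 3137 counts or 149 CPM in untreated Cal27, a ratio of 0.00313 (95% interval 0.00143 to 0.00596). SKN3 lay between, with 78.1 CPM and a ratio of 0.523 (95% interval 0.492 to 0.557) to Cal27. The untreated levels were 203 CPM in the labelled knockout, 78.1 in SKN3, 0.468 in BICR78 and 149 in Cal27, and no counting intervals overlapped, so the knockout was highest, then Cal27, SKN3 and BICR78. There was 1 library per line, so none of these differences has a replicate check.

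The low level in BICR78 extended to the genes upstream of NSD1, which were looked at after the NSD1 value was seen. UIMC1, which encodes the BRCA1-A complex subunit RAP80, had 7 counts in BICR78 and 600 in Cal27. ZNF346, a zinc finger gene, had 1 count in BICR78 and 436 in Cal27, and FGFR4, a fibroblast growth factor receptor gene, had 1 in BICR78 and 420 in Cal27. UNC5A, a netrin receptor gene further out, had 3 counts in BICR78 and 76 in Cal27, and HK3, a hexokinase gene, had 0 in both. The flanking genes were present, with TSPAN17 at 1097 counts in BICR78 and 1143 in Cal27, and RAB24, next to NSD1 on its other side, at 342 counts in BICR78 and 249 in Cal27. The 4 genes beyond RAB24 ran from 0.606 to 1.15 times their CPM in Cal27. Between the end of TSPAN17 and the start of RAB24 lie 642 kb and 6 protein-coding genes of the table, including NSD1, none of which reached 10 counts in BICR78. In SKN3 the same stretch was mixed, UIMC1 being at 48.4 CPM and ZNF346 at 23.4, against 28.6 and 20.7 in Cal27, with FGFR4 at 4.69 in SKN3 against 20.0 in Cal27. In the knockout with DMSO, where NSD1 rose, UNC5A rose by 0.72 (log2; adjusted p = 0.00051 in edgeR) and ZNF346 by 0.31 (adjusted p = 0.017) against Cal27 with DMSO. TSPAN17 fell by 0.30 (adjusted p = 0.0025) and FGFR4 by 0.45 (adjusted p = 0.014), while UIMC1 at 0.03 (adjusted p = 0.73) and RAB24 at 0.02 (adjusted p = 0.93) did not pass the test. In the untreated pair, 1 library each, UNC5A went the other way, at 0.628 times Cal27 in the knockout. The untreated ratios there were 1.07 for ZNF346, 0.588 for TSPAN17, 0.263 for FGFR4, 1.37 for UIMC1 and 1.04 for RAB24.

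**Figure D2:**
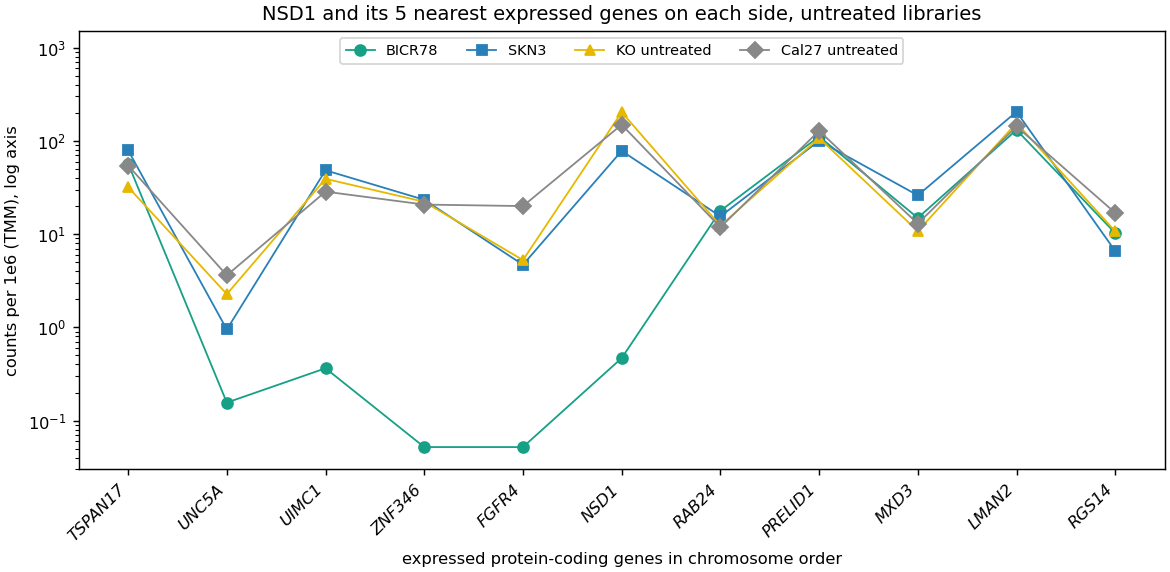
Counts per 1e6 (CPM, y axis, log scale) of NSD1 and its 5 nearest expressed protein-coding genes on each side, in chromosome order (x axis), in the 4 untreated libraries. The BICR78 line drops under 1 CPM from UNC5A to NSD1 and returns to the other lines at RAB24, where it stands at 17.8.

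To see how often a run of neighbouring genes was this low, 9217 protein-coding genes were followed along the chromosomes. They had at least 10 CPM in untreated Cal27 and a mean of at least 5 CPM over the 10 libraries. Genes under that mean were left out, so some genes high in Cal27 and near 0 elsewhere may be missing. In BICR78, 48 of them (0.521%) lay under 1 CPM, against 119 (1.29%) in SKN3 and 36 (0.391%) in the untreated knockout. Successive genes under that level formed 2 runs of at least 3 genes in BICR78. One was UIMC1, ZNF346, FGFR4 and NSD1 on chromosome 5, and the other was 11 genes on chromosome 9 between FOCAD and MOB3B (chr9:20655625-27529814), with MTAP and the tumour suppressor genes CDKN2A and CDKN2B inside it. SKN3 had 3 such runs, of which one was CDKN2A, CDKN2B and ELAVL2, all 3 also inside the chromosome 9 run of BICR78. Another held 6 genes of the epidermal differentiation cluster on chromosome 1 (IVL, SPRR1A, SPRR1B, S100A9, S100A8 and S100A7), and the last held 4 genes on the X chromosome (MAGEA4, GABRE, MAGEA3 and MAGEA6). The knockout had 1 run, of IVL, SPRR1A and SPRR1B. Counts of RNA do not measure gene copies, and the cause of the runs was not tested.

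The genes whose levels most resembled those of NSD1 over the 10 libraries, by Pearson r of log2 CPM among 10520 protein-coding genes with a mean of at least 5, were PLAA (r = 0.996), IFT74 (0.992), MTAP (0.992), PICK1 (0.992) and ASCC3 (0.990). PLAA, IFT74 and MTAP belong to the chromosome 9 run, at 0.104, 0.104 and 0.832 CPM in BICR78. Without the BICR78 library their r with NSD1 was 0.816, 0.702 and 0.730, and that of PICK1 and ASCC3 was 0.795 and 0.469. Over the 9 other libraries the top genes were MTF1 (0.983), AGPAT3 (0.981), WBP2 (0.980), MAN2B1 (0.979) and PTPRG (0.977). The order of the first 5 thus depended on the BICR78 library, and the libraries also share cell line, treatment set and depth. Among the other 8 enzymes, r with NSD1 over the 10 libraries ran from -0.807 (KDM2B) to 0.279 (KDM4C), with SETD2 at -0.634, KDM4A at -0.572, NSD2 at -0.514, ASH1L at -0.471, KDM2A at -0.007 and NSD3 at 0.093. Without BICR78 it ran from -0.601 (NSD3) to 0.780 (KDM2A), with NSD2 at -0.410, SETD2 at -0.343, KDM2B at -0.341, ASH1L at 0.024, KDM4A at 0.111 and KDM4C at 0.587.

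The second NSD gene, NSD2, also called WHSC1 or MMSET, is the family member that is activated by translocation in multiple myeloma, and lies at chr4:1871393-1982192. It had 139 and 137 CPM in the knockout with EPZ-6438, 171 and 171 in the knockout with DMSO, and 134 and 127 in Cal27 with DMSO. The knockout with DMSO stood above both other groups, which lay close together without overlapping. NSD2 rose in the knockout with DMSO by 0.38 ± 0.04 (log2, SE; adjusted p = 9.2e-07) and fell with EPZ-6438 by 0.31 ± 0.04 (adjusted p = 5.3e-06). The treated knockout and Cal27 with DMSO differed by 0.07 ± 0.04 (adjusted p = 0.14), so NSD2 was not shown to differ there, although scaling by library size alone gave 0.13 with an adjusted p of 0.015. Untreated levels were 204 CPM in SKN3, 191 in BICR78, 132 in the knockout and 136 in Cal27. The counting intervals of the knockout and Cal27 overlapped, with a ratio of 0.967 (95% interval 0.918 to 1.02), while SKN3 was 1.49 and BICR78 1.40 (95% interval 1.33 to 1.47) times Cal27. Under library size alone the untreated knockout ratio was 1.04, on the other side of 1.

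NSD3, also called WHSC1L1, lies in a region of the short arm of its chromosome that is amplified in some squamous and breast cancers. Its level was 97.1 and 96.6 CPM in the knockout with EPZ-6438, 103 and 101 in the knockout with DMSO, and 74.7 and 78.7 in Cal27 with DMSO. Both knockout groups lay above Cal27, the EPZ-6438 libraries slightly below the DMSO ones. The rise was 0.41 ± 0.05 with DMSO (log2, SE; adjusted p = 3.3e-06) and 0.33 ± 0.05 with EPZ-6438 against Cal27 with DMSO (adjusted p = 1.8e-05), and the change of -0.08 ± 0.05 between EPZ-6438 and DMSO did not pass the test (adjusted p = 0.16). In the untreated set NSD3 was lower in the knockout, with 56.3 CPM there and 64.8 in Cal27, a ratio of 0.869 (95% interval 0.804 to 0.939). SKN3 had the highest level of all 10 libraries at 169, which was 2.61 times Cal27 (95% interval 2.45 to 2.79), and BICR78 had 74.4.

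In SKN3 most genes beside NSD3 were also high. Of its 10 nearest expressed protein-coding genes, 7 were at least 1.5 times their level in untreated Cal27, and the median ratio of the 10 was 2.26. Among all genes with enough counts, 27.1% were higher in SKN3 by that rule. DDHD2, a phospholipase gene, was at 3.11, TACC1, a centrosomal coiled-coil gene, at 2.64, and ASH2L, a subunit of H3K4 methyltransferase complexes, at 2.29. Those below 1.5 were PLEKHA2 at 0.806, ADAM9 at 1.37 and IDO1, an interferon-induced gene, at 0.0633 from 2 counts in SKN3 and 35 in Cal27. In BICR78 the median ratio of the same 10 genes was 0.948. DDHD2 overlaps NSD3 in the annotation, so reads could be split between them, and nothing used here says whether counting took account of strand. The neighbours were chosen by position after the NSD3 value was seen, and gene copy number was not measured.

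**Figure D3:**
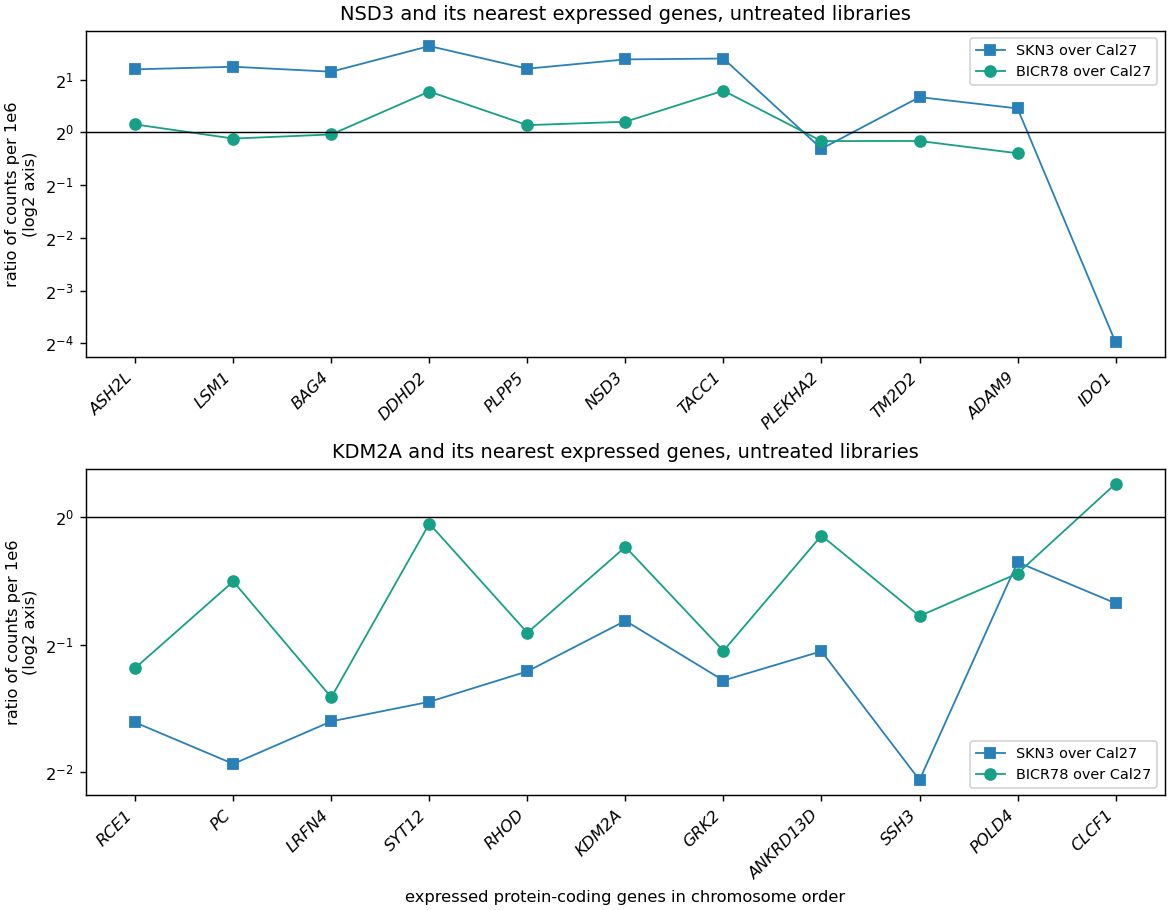
Ratio of CPM to untreated Cal27 (y axis, log2 scale) for NSD3 (upper panel) and KDM2A (lower panel) with their 5 nearest expressed protein-coding genes on each side in chromosome order (x axis), in SKN3 and BICR78, 1 library each. Around NSD3 the SKN3 line stays above 2 from ASH2L to TACC1, around KDM2A it stays below 1 throughout, and IDO1 has no BICR78 point because it had 0 counts there.

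SETD2, the main trimethylating enzyme, did not pass the test in any of the 3 comparisons. It had 58.0 and 57.2 CPM in the knockout with EPZ-6438, 59.6 and 56.8 in the knockout with DMSO, and 50.6 and 55.6 in Cal27 with DMSO. The libraries of Cal27 were the lowest, with a change of 0.12 ± 0.06 in the knockout with DMSO (log2, SE; adjusted p = 0.14), and a difference of -0.01 between EPZ-6438 and DMSO in the knockout (adjusted p = 0.87). Among untreated libraries SETD2 stood at 83.0 in SKN3, 82.7 in BICR78, 68.1 in the knockout and 56.7 in Cal27, and the first pair of these did not differ beyond counting error. Both other lines were at 1.46 times Cal27, and the knockout at 1.20 times (95% interval 1.11 to 1.30).

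ASH1L, the trithorax-group dimethylating enzyme, was higher in the knockout. Its levels were 86.5 and 83.5 CPM with EPZ-6438, 85.1 and 86.5 with DMSO, and 72.5 and 74.1 in Cal27 with DMSO. Neither knockout group overlapped Cal27, and the knockout groups overlapped each other. It rose by 0.22 ± 0.05 with DMSO (log2, SE; adjusted p = 0.0019) and by 0.20 ± 0.05 in the treated knockout against Cal27 with DMSO (adjusted p = 0.0019), with a difference of -0.02 (adjusted p = 0.81) between EPZ-6438 and DMSO in the knockout. In the untreated set the ratio of knockout to Cal27 was 1.09 (95% interval 1.03 to 1.16), and the levels of 111 in BICR78, 109 in SKN3 and 106 in the knockout had overlapping counting intervals, with Cal27 lowest at 96.9.

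**Figure D4:**
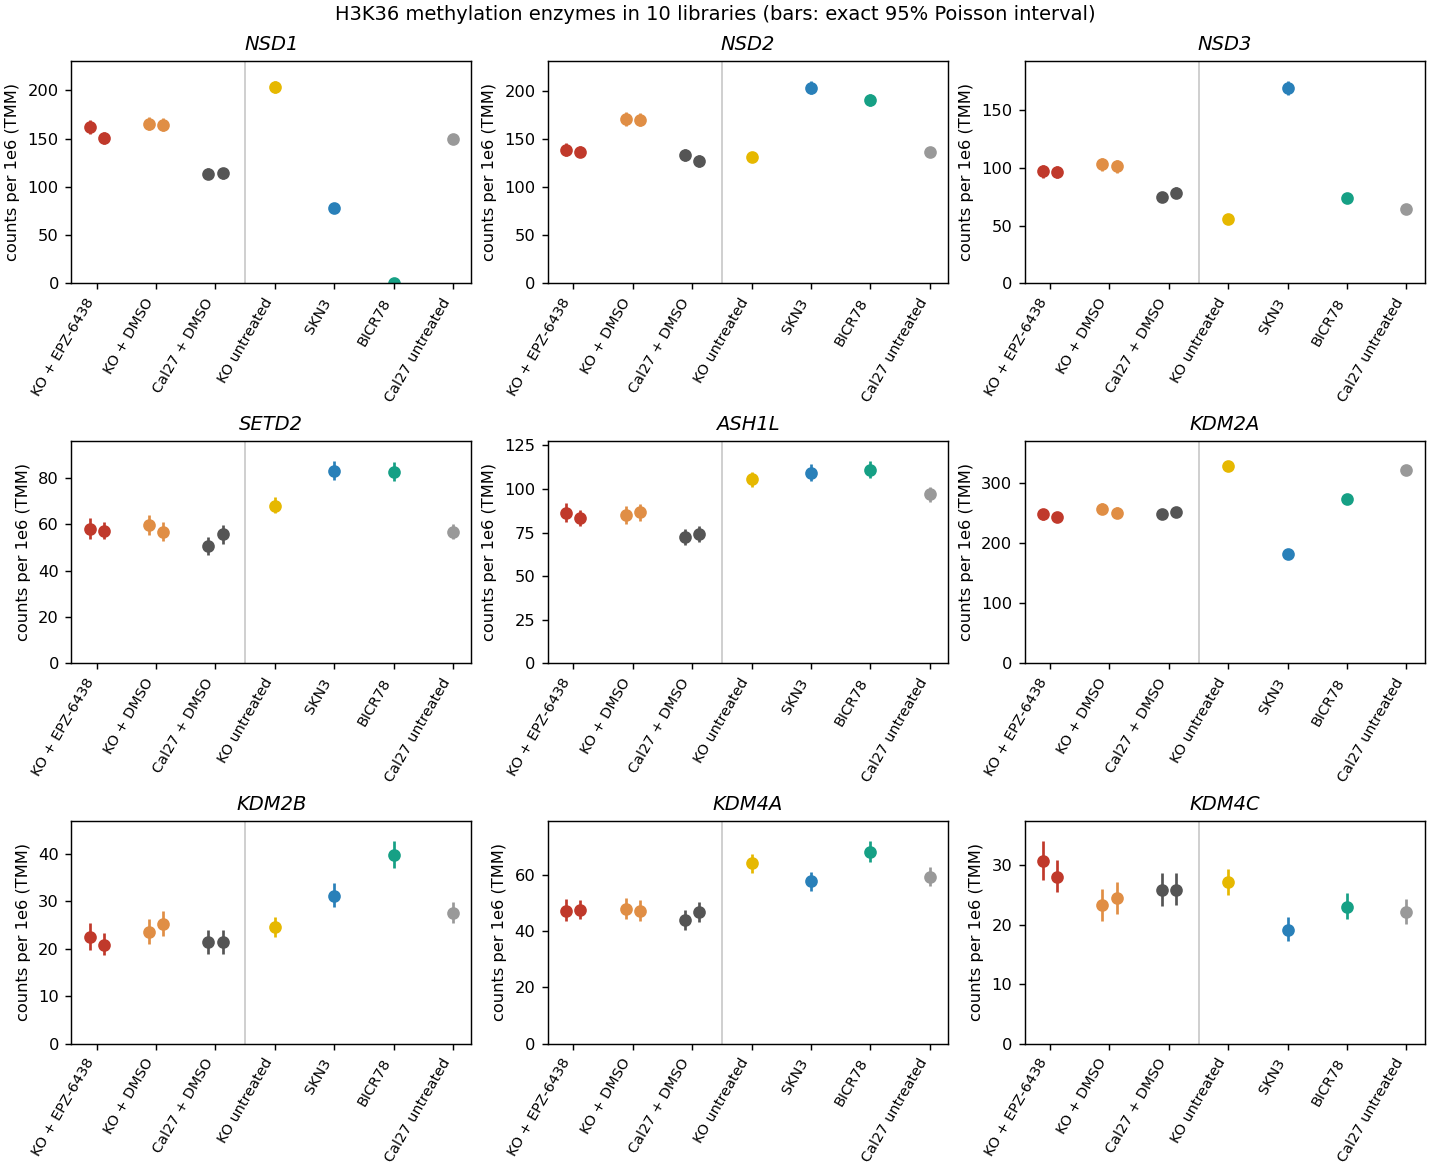
Counts per 1e6 (CPM, y axis, from 0) of each enzyme in the 10 libraries (x axis), 1 point per library with its exact 95% Poisson interval, and a grey line between the DMSO and EPZ-6438 set and the untreated set. NSD1 is at 0.468 in BICR78, NSD3 reaches 169 in SKN3, and KDM2A is lowest in SKN3 at 183.

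Among the demethylases, KDM2A did not pass the test in any of the 3 comparisons. It had 248 and 243 CPM in the knockout with EPZ-6438, 257 and 251 in the knockout with DMSO, and 249 and 251 in Cal27 with DMSO. The EPZ-6438 libraries lay just below the others, which overlapped, and the fitted changes were 0.01 ± 0.03 in the knockout with DMSO (log2, SE; adjusted p = 0.78) and -0.05 with EPZ-6438 (adjusted p = 0.22). Untreated levels of KDM2A were 183 in SKN3, 273 in BICR78, 328 in the knockout and 321 in Cal27. The SKN3 level was 0.569 times that of Cal27 (95% interval 0.546 to 0.593). Of the 10 genes beside it, 9 were at 0.67 of Cal27 or less in SKN3, with a median ratio of 0.388 and a range of 0.239 to 0.783. Among all genes with enough counts, 30% were lower in SKN3 by 1.5-fold or more. SSH3, a cofilin phosphatase gene, was at 0.239 and GRK2, a receptor kinase gene, at 0.411. In BICR78 5 of the 10 were at 0.67 or less, with a median of 0.644, against 19.4% of genes with enough counts. These neighbours too were chosen by position after the KDM2A value was seen. Beside ASH1L, 6 of 10 genes were at 0.67 or less in SKN3, with ASH1L itself at 1.13 times Cal27.

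KDM2B, the demethylase that brings the variant Polycomb complex PRC1.1 to CG-rich promoters, did not pass the test either. Its level was 22.4 and 20.9 CPM in the knockout with EPZ-6438, 23.5 and 25.2 in the knockout with DMSO, and 21.4 and 21.3 in Cal27 with DMSO. The knockout with DMSO was highest, but neither its change of 0.18 ± 0.09 against Cal27 (log2, SE; adjusted p = 0.13) nor that of -0.17 ± 0.09 with EPZ-6438 (adjusted p = 0.12) passed the test. BICR78 had the highest untreated level at 39.7, or 1.44 times Cal27 (95% interval 1.29 to 1.61), with 31.2 in SKN3, 24.5 in the knockout and 27.6 in Cal27. In order of level, only the BICR78 interval stood apart from its neighbour. KDM2B overlaps RNF34 in the annotation, so its reads may be split.

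The trimethyl demethylase KDM4A did not pass any test, at 47.2 and 47.5 CPM in the knockout with EPZ-6438, 47.9 and 47.1 in the knockout with DMSO, and 43.9 and 46.6 in Cal27 with DMSO. Its change was 0.06 ± 0.06 in the knockout with DMSO (log2, SE; adjusted p = 0.50). Untreated levels ran between 57.6 in SKN3 and 68.0 in BICR78. The related KDM4C had 30.6 and 28.1 CPM with EPZ-6438, 23.2 and 24.4 in the knockout with DMSO, and 25.8 and 25.9 in Cal27 with DMSO. Both EPZ-6438 libraries lay above the other 4. KDM4C rose with EPZ-6438 by 0.30 ± 0.08 against the knockout with DMSO (log2, SE; adjusted p = 0.0067). The adjusted p was 0.054 without the first knockout DMSO library and 0.058 without the first EPZ-6438 library, and 0.052 with DESeq2. Against Cal27 with DMSO the treated knockout differed by 0.17 ± 0.08 (adjusted p = 0.09), and the knockout with DMSO differed from Cal27 by -0.13 ± 0.08 (adjusted p = 0.27). Without treatment KDM4C was at 27.1 in the knockout, 23.0 in BICR78, 19.1 in SKN3 and 22.1 in Cal27, with a knockout ratio of 1.23 (95% interval 1.08 to 1.39) to Cal27.

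At 1.5-fold or more, none of the 9 enzymes separated the untreated knockout from untreated Cal27, where 10.2% of genes with enough counts were higher and 12.4% lower. In SKN3, NSD3 was higher and NSD1 and KDM2A were lower by that rule, with 27.1% of genes higher and 30% lower. In BICR78, NSD1 alone was lower and no enzyme was higher, with 22.7% of genes higher and 19.4% lower. With other scalings NSD2 and SETD2 also passed 1.5-fold in SKN3, giving 3 higher.

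The change under the knockout label could be set side by side in the DMSO set and the untreated pair, since both had labelled knockout and parental libraries. A fit over 8 libraries, the 6 of the DMSO and EPZ-6438 set and the untreated pair, was added after the values were seen. It used 13999 genes, of which 29.8% were called different between the sets. The untreated side was 1 library of each kind, assumed to vary like the other groups, so its own spread was not measured. For NSD2 the log2 change between knockout and Cal27 was 0.39 in the DMSO set and -0.04 in the untreated pair, a difference of 0.43 ± 0.06 (log2, SE; adjusted p = 0.00011). For NSD3 it was 0.41 in the DMSO set and -0.20 in the untreated pair, a difference of 0.61 ± 0.08 (adjusted p = 2.9e-05). For KDM4C it was -0.12 in the DMSO set and 0.30 in the untreated pair, a difference of -0.42 ± 0.14 (adjusted p = 0.029). For NSD1 it was 0.53 in the DMSO set and 0.45 in the untreated pair, with a difference of 0.08 ± 0.07 (adjusted p = 0.39), and the other 5 enzymes did not pass the test either. When the untreated pair was added to the knockout comparison with the set as a term, NSD2 (0.24, adjusted p = 0.094) and NSD3 (0.21, adjusted p = 0.25) were no longer called, leaving NSD1 and ASH1L. The sets differ in DMSO, in depth and in whatever else separates them, and these cannot be told apart.

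**Figure D5:**
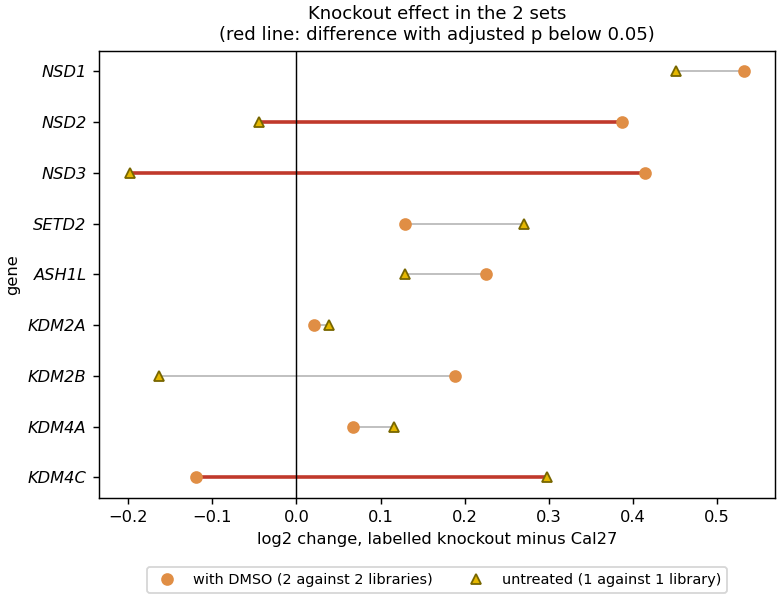
Log2 change between the labelled knockout and Cal27 (x axis) for each enzyme (y axis) in the DMSO set and in the untreated pair, joined by a red line where the difference between the 2 changes had an adjusted p below 0.05. NSD2 and NSD3 lie right of 0 with DMSO (0.39 and 0.41) and left of 0 untreated (-0.04 and -0.20), and NSD1 lies right of 0 in both.

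Of 4 further genes reported as H3K36 methyltransferases that were tested (PRDM9 was too low), SETD5 rose in the knockout with DMSO by 0.15 ± 0.06 (log2, SE; adjusted p = 0.043). That call was lost without the second Cal27 library, without either knockout DMSO library, in DESeq2, and with the untreated pair added. With EPZ-6438, SETMAR, a methyltransferase fused to a transposase, rose by 0.44 ± 0.15 (adjusted p = 0.02) and SETD3, an actin histidine methyltransferase, fell by 0.14 ± 0.06 (adjusted p = 0.047) against the knockout with DMSO. The SETMAR call was lost without the second knockout DMSO library or without either EPZ-6438 library, and the SETD3 call without the first knockout DMSO library. Neither was called in DESeq2. The list's median changes were 0.06 and -0.10 in these comparisons. Of 4 other demethylases, KDM4B had 41.4 and 41.8 CPM with EPZ-6438, 31.2 and 29.7 in the knockout with DMSO, and 42.4 and 35.3 in Cal27 with DMSO. It fell in the knockout by 0.36 ± 0.08 (adjusted p = 0.0029), a call lost without the first Cal27 library and with the untreated pair added, and rose with EPZ-6438 by 0.45 ± 0.08 (adjusted p = 0.00026). Without treatment KDM4B was higher in the knockout, at 53.2 CPM against 37.6 in Cal27, a ratio of 1.42 (95% interval 1.29 to 1.55, counting error only). It was the 1 demethylase of this list called in each of these comparisons, and the median changes of the 4 were -0.03 in the knockout and -0.16 with EPZ-6438. Beside both lists, 16.4% of all tested genes were higher and 19.5% lower in the knockout with DMSO. With EPZ-6438 these shares were 25.6% and 23.9%.

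Of 17 tested proteins that read H3K36 methylation, 3 rose and 4 fell in the knockout with DMSO (median log2 change -0.03), and 4 rose and 3 fell with EPZ-6438 (median 0.02). Over all tested genes, 16.4% rose and 19.5% fell in the knockout, and 25.6% rose and 23.9% fell with EPZ-6438. With the untreated pair added, 0 readers were higher and 2 lower in the knockout. With library size alone the counts in the knockout turned to 5 and 2, and without the second knockout DMSO library to 2 and 2. In DESeq2, 1 reader in place of 4 fell in the knockout. The DNA methyltransferases DNMT3A and DNMT3B bind the mark through PWWP domains. DNMT3A had 6.74 and 6.89 CPM with EPZ-6438, 4.13 and 3.29 in the knockout with DMSO, and 7.05 and 6.41 in Cal27 with DMSO. It fell in the knockout by 0.87 ± 0.20 (log2, SE; adjusted p = 0.0021) and rose with EPZ-6438 by 0.88 ± 0.20 (adjusted p = 0.0012), a rise that is named after its value was seen. DNMT3B fell in the knockout by 0.65 ± 0.17 (adjusted p = 0.0066), a fall also named after its value was seen. It rose with EPZ-6438 by 0.80 ± 0.17 (adjusted p = 0.00084). Its levels were 8.79 and 7.73 CPM with EPZ-6438, 4.67 and 4.75 in the knockout with DMSO, and 7.42 and 7.31 in Cal27 with DMSO. The treated knockout and Cal27 with DMSO differed by 0.15 ± 0.16 (adjusted p = 0.45). In the untreated pair the knockout was at 0.77 times Cal27 for DNMT3A (95% interval 0.61 to 0.98) and 0.628 for DNMT3B (0.507 to 0.775). BRPF3, a subunit of histone acetyltransferase complexes, rose with EPZ-6438 by 0.65 ± 0.07 (adjusted p = 8.4e-07), to 43.9 and 44.2 CPM against 28.1 and 28.1 in the knockout with DMSO. MSH6, the mismatch repair protein that reads the trimethyl form, rose in the knockout by 0.20 ± 0.04 (adjusted p = 0.00085) and fell with EPZ-6438 by 0.20 ± 0.04 (adjusted p = 0.00065), and PHF19, a PRC2 accessory protein, rose in the knockout by 0.26 ± 0.07 (adjusted p = 0.0046). The untreated knockout had 105 CPM of MSH6 against 120 in Cal27, the other direction (ratio 0.874, 95% interval 0.826 to 0.926), and 59.5 of PHF19 against 59.6 in Cal27. Among the untreated lines DNMT3A was at 44.8 CPM in SKN3 and 20.9 in BICR78, against 7.76 in Cal27.

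Of 11 partners of SETD2 in transcript elongation, 2 rose (POLR2A and PAF1) and 1 fell (CDK9) in the knockout with DMSO (median 0.06), against 16.4% and 19.5% of all tested genes. Leaving out 1 library gave 1 to 2 rises and 0 to 1 falls, library size alone gave 5 rises, and DESeq2 gave 1 rise and 0 falls. With EPZ-6438 none rose and 4 fell (median -0.07), against 25.6% and 23.9% of all tested genes. POLR2A, the large subunit of RNA polymerase II, rose in the knockout by 0.19 ± 0.03 (log2, SE; adjusted p = 0.00037) and fell with EPZ-6438 by 0.17 ± 0.03 (adjusted p = 0.00057). Without treatment it was lower in the knockout, at 276 CPM against 326 in Cal27 (ratio 0.845, 95% interval 0.816 to 0.875). CDK12, a kinase of its tail, fell with EPZ-6438 by 0.29 ± 0.04 (adjusted p = 4.2e-05). The 4 falls became 2 without either knockout DMSO library, without the second EPZ-6438 library, or in DESeq2.

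Of the 10 partners of KDM2B in PRC1.1, 5 rose and 1 (USP7) fell with EPZ-6438 (median 0.17), against 25.6% and 23.9% of all tested genes, and the 1 fall was 0 to 2 when 1 library was left out. In the knockout with DMSO 2 rose and 1 (SKP1) fell (median 0.07), against 16.4% and 19.5% of all tested genes, and with the untreated pair added 1 was higher and 0 lower. RNF2, the ubiquitin ligase of the complex, rose with EPZ-6438 by 0.52 ± 0.08 (log2, SE; adjusted p = 3e-05), with 37.3 and 35.6 CPM against 24.5 and 26.1 in the knockout with DMSO. BCORL1, a scaffold protein, rose by 0.92 ± 0.16 (adjusted p = 0.00011), with 19.5 and 13.8 CPM against 8.80 and 8.55 in the knockout with DMSO. The 5 rises were 4 or 5 when any 1 library was left out, whereas the 2 rises in the knockout, RNF2 and YAF2, became 0 or 1 without any one of the 4 libraries compared. In DESeq2 those 2 rises became 0. Of 10 tested genes of the PRC2 core and the H3K27 demethylases, 2 (RBBP7 and SUZ12) rose and none fell in the knockout with DMSO (median 0.10). When 1 library was left out 1 to 4 rose, and in DESeq2 or with the untreated pair added 1 rose. With library size alone, or with only the 2 groups compared, 5 rose. Another scaling (DESeq2-type size factors), no low-count filter or a robust spread each gave 4. With EPZ-6438, 1 rose and 2, KDM6A and RBBP7, fell (median -0.04), the 2 becoming 1 without the first knockout DMSO or the second EPZ-6438 library. KDM6A, an H3K27 demethylase, fell with EPZ-6438 by 0.48 ± 0.08 (adjusted p = 8e-05), at 25.3 and 27.7 CPM against 36.4 and 37.8 in the knockout with DMSO. JARID2, a PRC2 cofactor, rose with EPZ-6438 by 0.23 ± 0.07 (adjusted p = 0.012), a call lost without the first knockout DMSO library and in DESeq2.

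Against Cal27 with DMSO, the knockout with EPZ-6438 had 5 of the 10 PRC1.1 partners higher and 1 lower (median 0.16). Among all tested genes 26.1% were higher and 25.9% lower. RNF2 was higher at 0.79 ± 0.08 (log2, SE; adjusted p = 3e-07), and SKP1 was the lower one at -0.22 ± 0.04 (adjusted p = 6.6e-05). Of the 17 readers 3 were higher and 3 lower (median 0.01). Among the higher ones were BRPF3 at 0.60 ± 0.07 (adjusted p = 1.5e-06) and PHF1, a PRC2 accessory protein, at 0.53 ± 0.11 (adjusted p = 0.00076). The lower ones were MORF4L1 at -0.18 ± 0.03 (adjusted p = 0.00013), MORF4L2 at -0.13 and GLYR1 at -0.13. The 3 lower readers became 1 without the first Cal27 or the second EPZ-6438 library. Of the 10 PRC2 and H3K27 demethylase genes 1 (JARID2) was higher and 1 lower (median 0.08), the lower one being KDM6A at -0.38 ± 0.08 (adjusted p = 0.00068). JARID2 was not called without the first Cal27 library or in DESeq2. Of the 11 elongation partners none was higher and 2 were lower (median -0.03), CDK12 at -0.19 and CDK9 at -0.14. When 1 library was left out 1 to 3 were lower, and in DESeq2 1 was lower. None of the other 4 writers was called in either direction (median 0.01). Of the other 4 demethylases RIOX1 was lower at -0.33 ± 0.10 (adjusted p = 0.011), a call lost without the second EPZ-6438 library and in DESeq2.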

How the data were processed

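RNA-seq was analysed for 10 libraries, grouped by their titles. Libraries came from TRIzol-extracted total RNA depleted of ribosomal RNA, per the labels' protocols. Per the submitters' processing notes the build was hg38 and the tools were HISAT2 2.1.0, featureCounts 1.6.1, Picard 2.23.1 and CASAVA 1.7. Their roles, the annotation and the strand setting are not given in these sources. Raw counts per gene, as the authors deposited them, were used; 12036 of 34496 rows were at 0 in all libraries.

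edgeR 4.0.16 in R 4.3.3 was fitted to the 6 DMSO and EPZ-6438 libraries at once: default low-count filter, TMM scaling, quasi-likelihood F test on group alone, Benjamini-Hochberg adjustment over 13241 genes, calls at adjusted p below 0.05. The biological coefficient of variation was 2.6%. Levels are counts per 1e6 (CPM) after TMM over 10 libraries, with exact 95% Poisson intervals; single-library ratios have exact conditional binomial intervals and their background used genes with at least 100 counts in the pair. Likeness used log2 CPM with a prior count of 2. Transcript lengths were not used, so levels of different genes were not compared. The fit was tested on simulated data.

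The enzymes and gene lists were chosen with earlier results of these data known. Text names the 9 enzymes, up to 3 members per list with the lowest adjusted p in each comparison, and the 5 genes most like NSD1; any other gene was chosen after its values were seen, as were all chromosomal neighbours. Alternatives were DESeq2 1.42.0, other scalings and filters, fits of 2 groups, a robust spread, a replicate block, fits without each library in turn, and a fit that included the untreated pair. Replicates of a group differed beyond counting noise (chi-square per degree of freedom 1.77 to 2.20). The 7 CUT&Tag samples were not analysed here.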

Additional observations from a re-analysis of the deposited data

Results flagged for a closer look

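The difference between the knockout changes in the DMSO set and in the untreated pair passed an edgeR test of that difference for NSD2, NSD3 and KDM4C. The difference on the log2 scale was 0.43 for NSD2, 0.61 for NSD3 and -0.42 for KDM4C, and the adjusted p-values were 0.00011, 2.9e-05 and 0.029. The untreated side is 1 library of each kind, assumed to vary like the others, so its own spread was not measured and an effect of either single library cannot be told apart from the set. By the same test, 29.8% of all genes differed. All 8 libraries entered, and the cause was not tested.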

How the results depend on the processing

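Of the values fitted for the 9 enzymes under all alternatives, 376 kept direction and side of the threshold, 6 gained a call, 5 lost one and none changed direction. With the untreated pair added, the knockout comparison had 1318 genes higher and 1595 lower, and 2 enzymes higher in place of 4. With DESeq2 it had 1512 and 1736 genes and the same number of enzymes, 4, and no enzyme rose with EPZ-6438 (0 in place of 1, KDM4C at 0.30 with an adjusted p of 0.052). Leaving out 1 library gave 0 to 1 enzymes higher and 1 to 2 lower with EPZ-6438. With library size alone, the treated knockout against Cal27 had 4016 genes higher and 2815 lower, in place of 3456 and 3428, and 6 enzymes higher, NSD2, SETD2 (adjusted p = 0.035) and KDM4C (adjusted p = 0.029) joining. In SKN3, 3 enzymes were 1.5-fold or more higher with library size alone and with DESeq2-type size factors. Of single-library ratios, 12 moved outside their counting interval under another scaling. Same-numbered libraries did not deviate together (correlations 0.014, -0.044 and 0.003), so numbers did not pair them; a replicate block left 4, 1 and 3 enzymes higher and 0, 1 and 0 lower in the 3 comparisons, with 2054 genes higher and 2458 lower in the knockout, and changed no call among the enzymes, while SETD5 and SETD3 were no longer called (0 in place of 1 each). Of the counts for other lists, 436 stayed within 1.5 times, 21 were higher and 59 lower. The cause of these shifts was not tested. Depth limits the reading of KDM2B and KDM4C, the enzymes with the fewest counts, and of the 9 NSD1 counts in BICR78.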
